A study of Mus musculus with 12 samples.

Results

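The apoptotic cell uptake genes are 10 mouse genes that take part in the recognition and engulfment of dying cells, taken from a fixed list of names: Mfge8, Mertk, Tyro3, Gas6, Pros1, Megf10, Gulp1, Elmo1, Dock1 and Itgav. They were found by joining RefSeq transcript entries to gene symbols. The 10 genes had 13 of the 32850 entries and were 10 of the 24209 genes, where an entry with no symbol counts as its own gene. RNA was sequenced from whole bilateral hippocampi of 12 male C57BL/6 mice, injected at 10 weeks of age with an AAV vector and analysed 10 weeks later. The vectors were pseudotyped AAV2/5 with a human synapsin promoter, which restricts expression to neurons, and all of them carried GFP. In the miR-9 experiment, 3 GFP-miR-9sp mice (mice 9, 17 and 23) were compared with 3 GFP Ctrl mice (2, 8 and 16). In the miR-34 experiment, 3 GFP-miR-34sp mice (3, 13 and 18) were compared with 3 GFP Ctrl mice (4, 8 and 10). The mouse numbers come from the labels, and the number 8 occurs in both control groups. The labels of the control mice 2, 8 and 16 name no experiment, and these mice were placed in the miR-9 experiment because the other controls carry the label of the miR-34 experiment. A sponge is a transcript with repeated imperfect target sites that binds a miRNA family and keeps it from its own targets.

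Dying cells show phosphatidylserine on their surface. Bridging molecules (Gas6, protein S and Mfge8) attach to it and link the dying cell to receptors on the engulfing cell, namely the TAM receptor kinases and integrins with the αv subunit. Adaptor proteins then carry the signal to the small GTPase Rac, which drives the membrane around the corpse. In the brain, microglia and astrocytes are known for this uptake, whereas the sponges were expressed in neurons. The samples hold all cells of the tissue although the labels call the cell type hippocampal neurons. In such bulk RNA, fewer cells of a type and less RNA per cell cannot be told apart.

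The miRNAs that the sponges bind are shown here because a release from inhibition would be looked for at matches to their seeds. The mature sequences are from RefSeq (GRCm38.p6), and the capitals mark the seed, bases 2 to 8.
mmu-miR-9-5p: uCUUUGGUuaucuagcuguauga
mmu-miR-34a-5p: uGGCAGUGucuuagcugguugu
mmu-miR-34b-5p: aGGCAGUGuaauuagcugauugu
miR-34a and miR-34b share 1 seed, and miR-34c belongs to the same family. The heptamer that pairs with the miR-9 seed is ACCAAAG, and that for miR-34 is CACTGCC. Both were searched on the transcribed strand of the longest 3′ UTR that GENCODE M1 (mm9) gives a gene, and the heptamers do not overlap each other. Elmo1 held 1 miR-9 heptamer, and Tyro3 held 1 miR-34 heptamer. These windows of 30 bases show the matches in capitals.
Elmo1, chr13:20697646-20697675 (+): ctactggattagaagACCAAAGgcctccta
Tyro3, chr2:119643162-119643191 (+): cagcctggaactcagCACTGCCcaccacac
Neither match is followed by A, the base that makes an octamer. The longest 3′ UTRs of the other 8 genes had no such heptamer of either family. Of the genes tested in the miR-9 experiment that had a 3′ UTR, 13.9% held the miR-9 heptamer, and 17.4% of those in the miR-34 experiment held the miR-34 heptamer. A match of letters is a description and does not show binding.

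The mice of the miR-9 experiment had 17279620 to 24428477 counted reads each, and those of the miR-34 experiment 11029604 to 16934133. Markers of neurons, astrocytes, microglia, oligodendrocytes, endothelial cells and choroid plexus were all present, and the neuronal marker Rbfox3 (6 entries) had at most 0.225 CPM (counts scaled to the total of the mouse) in any mouse. The counts of choroid plexus markers differed widely between mice. Summed over 10 genes, they were 651.5 to 2389 CPM in GFP Ctrl and 74.5 to 154.8 after GFP-miR-34sp, and in the miR-9 experiment 128.1 to 750.4 in GFP Ctrl and 54.92 to 887.2 after GFP-miR-9sp. After GFP-miR-34sp, all 8 choroid plexus markers tested were lower by the unadjusted test and 3 by the adjusted one. Of the choroid plexus markers, Folr1 and Otx2 were near 0 (below 1 CPM) in all mice, as were Itgam and Trem2 among the 12 of microglia.

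The levels of the uptake genes in GFP Ctrl mice were compared as RPKM, the CPM divided by the transcript length in kb, for the 7 genes with 1 RefSeq entry. Gas6, a bridging ligand of the TAM receptors, was the highest. It had 51.4 ± 1.08 (SD, n = 3) in GFP Ctrl of the miR-9 and 51.5 ± 3.69 in GFP Ctrl of the miR-34 experiment. This was above 88.1% and 87.3% of the genes tested, which include genes with more than 1 RefSeq entry. The RPKM values of the latter are not comparable with those of genes with 1 entry. Itgav, the integrin αv subunit, and Mertk, the TAM receptor known for uptake by phagocytes, followed. Itgav was at 15.8 ± 0.242 and Mertk at 15.5 ± 1.02 in the miR-9 experiment, with overlapping ranges. In the other controls, they were at 17.7 ± 1.03 and 14.1 ± 0.911, and did not overlap. Dock1, which activates Rac together with Elmo1, came next with 10.3 ± 0.344 and 10.1 ± 1.09. Megf10, an engulfment receptor of astrocytes, and Pros1, which encodes protein S, were close to each other. Megf10 was at 7.97 ± 0.315 and Pros1 at 7.24 ± 0.445 in the miR-9 experiment without overlap, whereas in the miR-34 experiment Pros1 was at 7.59 ± 0.88 and Megf10 at 7.04 ± 0.865 with overlap. Gulp1, an adaptor that binds engulfment receptors, was the lowest of the 7 at 2.22 ± 0.0448 and 2.24 ± 0.385. The ligand Gas6 was thus the most abundant of these transcripts per length in both sets of controls, and the order of the neighbours Megf10 and Pros1 was not the same in them.

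**Figure D1:**
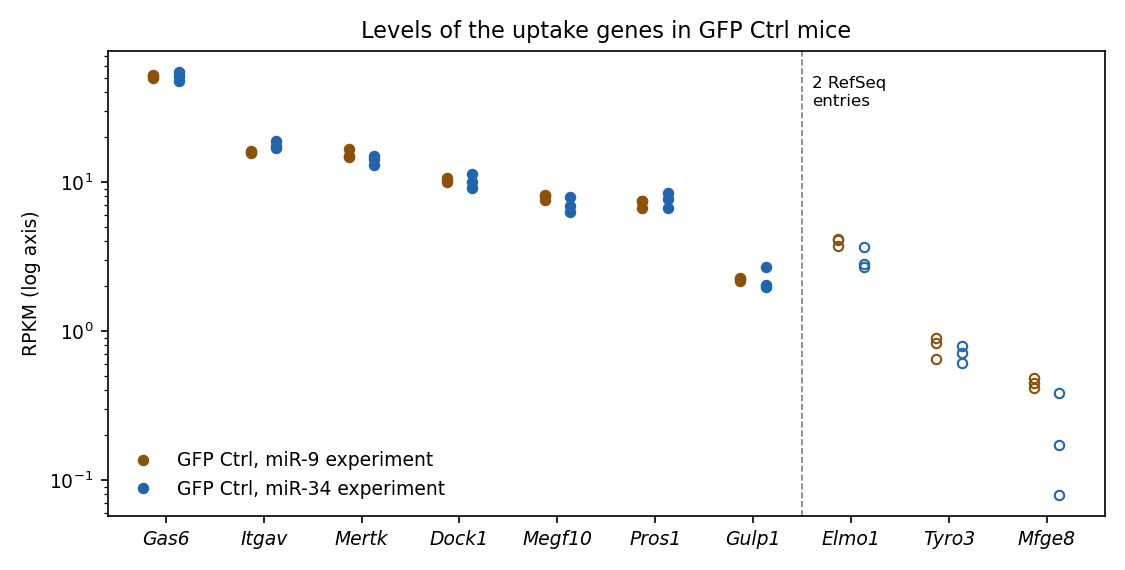
Levels of the 10 uptake genes in each GFP Ctrl mouse (points, 3 mice per experiment) as RPKM on a log axis, with brown for the miR-9 and blue for the miR-34 experiment. Gas6 lies near 51 in both, and the 3 genes with 2 RefSeq entries (open points) are not comparable per length.

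The other 3 genes, Mfge8, Tyro3 and Elmo1, have 2 entries each, and their counts per length are not comparable with those above. For Mfge8, the entry NM_001045489 (2015 bases) had 0 reads in all 12 mice, and all reads lay on NM_008594 (2126 bases). The entries differ in length by 111 bases, which is the length of 1 exon at chr7:86288164-86288274 (−, mm9) that 1 of 2 GENCODE M1 transcripts of Mfge8 has. Such zeros were frequent. Of the 1015 genes with 2 entries and a mean of 10 or more reads over the 12 mice, 429 (42.3%) had an entry at 0 in every mouse. The rule for reads that fit both entries is not given in the sources used here. The few reads of Mfge8 therefore do not measure the amount of its RNA. The summed reads of Tyro3 and Elmo1 depend on the same unknown rule. For Tyro3, a TAM receptor of neurons, NM_019392 (3988 bases) held 84.8 ± 1.43% of the summed reads in GFP Ctrl of the miR-9 experiment and 87.3 ± 4.88% in GFP Ctrl of the miR-34 experiment (SD, n = 3), and NM_001290800 (4452 bases) held the rest. For Elmo1, the partner of Dock1, NM_080288 (5576 bases) held 81.1 ± 2.07% and 80.9 ± 1.62%, and NM_198093 (4102 bases) the rest. After the sponges, the longer Elmo1 entry held 81.6 ± 1.18% (GFP-miR-9sp) and 80.8 ± 4.32% (GFP-miR-34sp), so that the shares of the Elmo1 entries overlapped between the groups in both experiments. Tyro3 shares did so too, with 81.2 ± 6.07% after GFP-miR-9sp and 87.5 ± 4.64% after GFP-miR-34sp.

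**Figure D2:**
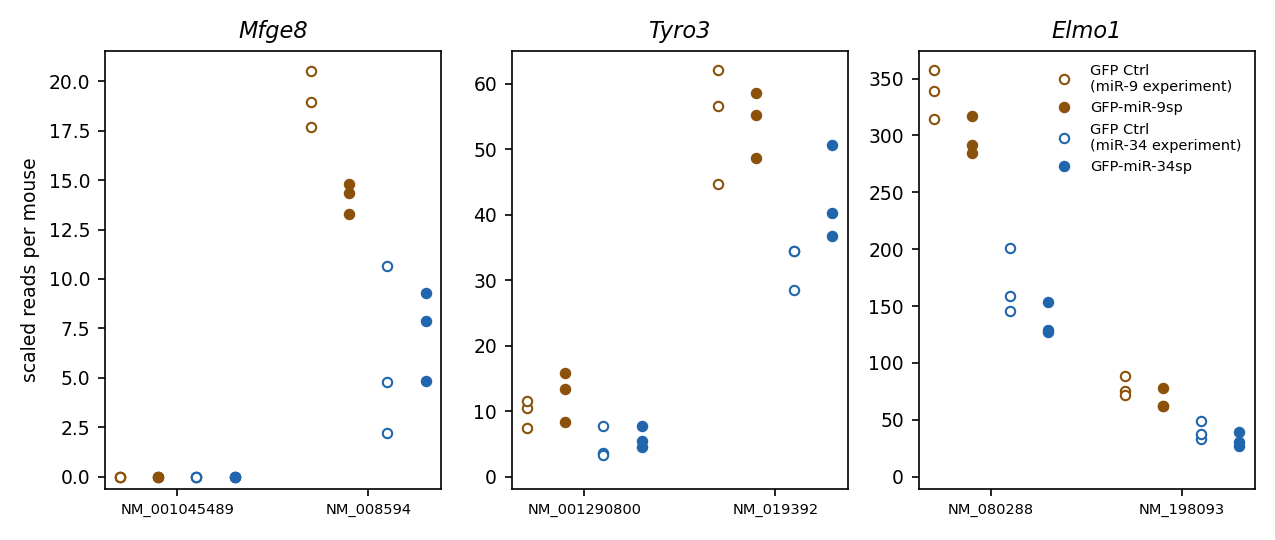
Scaled reads per mouse on each RefSeq entry of Mfge8, Tyro3 and Elmo1, with open points for GFP Ctrl and filled points for the sponge mice (brown, miR-9 experiment, and blue, miR-34 experiment, each scaled within its experiment). NM_001045489 of Mfge8 is at 0 in all 12 mice.

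The effect of each sponge was tested on the sum of a gene's entries. Reads were scaled to the average effective library of the experiment (TMM). Genes were tested with the quasi-likelihood test of edgeR if their mean over the 6 mice was above 10 reads. For this limit, reads were scaled to the average total count instead. All 10 genes passed this limit in the miR-9 experiment and 9 in the miR-34 experiment, where Mfge8 did not. None of them passed an adjusted p (Benjamini-Hochberg) of 0.05 in either experiment, by edgeR or by DESeq2. Over all genes, 0 of 13045 (0%) passed in the miR-9 and 8 of 12492 (0.064%) in the miR-34 experiment, where other size factors or total counts gave 4. By the unadjusted p of edgeR, 0 of the 10 uptake genes were higher and 1 (Elmo1) was lower after GFP-miR-9sp, against 2.47% higher and 2.26% lower of all genes. After GFP-miR-34sp, 0 of 9 were higher and 2 (Gas6 and Elmo1) lower, against 2.71% and 3.72%. The median log2 fold change of the uptake genes was −0.01 and −0.04, and that of all genes was −0.00 in both. Of the uptake genes, 5 of 10 and 6 of 9 had a value below 0, beside 50.3% of all genes in each experiment. On single entries, 0 of 12 and 0 of 10 tested entries of these genes passed the adjusted test, against 0% of 13439 and 0.0313% of 12787 entries.

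**Figure D3:**
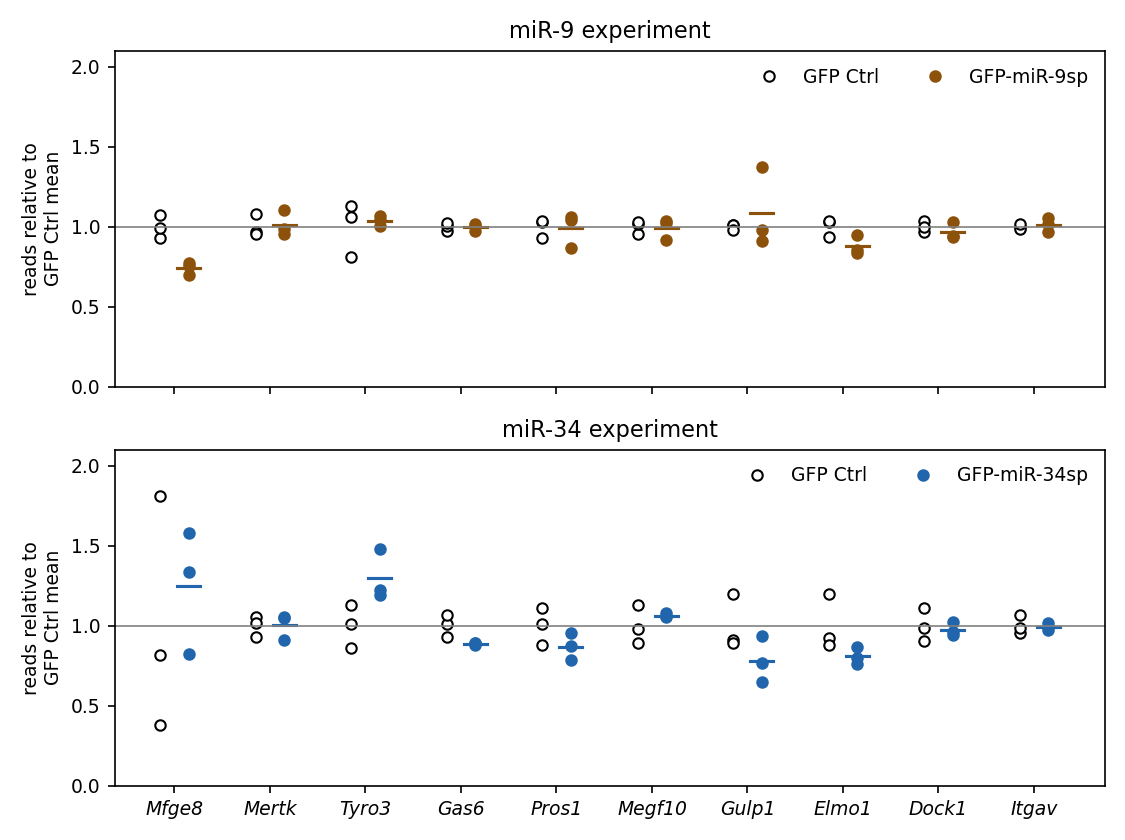
TMM-scaled reads of each gene in each mouse, divided by the mean of the 3 GFP Ctrl mice of that experiment (grey line at 1.0). Open points are GFP Ctrl mice, filled points are sponge mice and short bars are sponge means. Gas6, Elmo1 (both lower) and Tyro3 (higher) do not overlap with GFP Ctrl in the miR-34 experiment, nor does Mfge8 (lower) in the miR-9 experiment.

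Among the bridging molecules, Gas6 (chr8:13465374-13494535, −, mm9) had the smallest p of the members, after GFP-miR-34sp. It had 1758, 1861 and 1616 scaled reads in the GFP Ctrl mice 4, 8 and 10, and 1535, 1559 and 1554 in the GFP-miR-34sp mice 3, 13 and 18. All sponge mice were thus below all GFP Ctrl mice, and their values lay close together. The means were 1745 ± 123 and 1549 ± 12.4 (SD, n = 3), a log2 fold change of −0.17 (SE 0.051, 95% interval −0.28 to −0.06, edgeR adjusted p = 0.551). Gas6 had 2605, 2672 and 2724 scaled reads in the GFP Ctrl mice of the miR-9 experiment and 2719, 2686 and 2596 in GFP-miR-9sp mice. These groups overlapped, and the log2 fold change was 0.00 (SE 0.037, interval −0.08 to 0.08). The difference between the sponge effects on Gas6, tested in 1 model of all 12 mice, was −0.17 (SE 0.064, interval −0.31 to −0.04, edgeR adjusted p = 0.761). It was the 1 of 10 members below an unadjusted 0.05 in this test, whereas 6.1% of 12835 genes were, and 0% of them passed the adjusted test.

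Some markers of other cells were also lower after GFP-miR-34sp. Ttr, the choroid plexus marker with the most reads, had 1802, 2175 and 576 CPM in the GFP Ctrl mice 4, 8 and 10, and 91.3, 102 and 27.6 in the GFP-miR-34sp mice 3, 13 and 18. Mouse 8, with the most Ttr, also had the most Gas6, and mouse 10 had the least of both among the controls. Ttr ranged from 16 to 763 CPM in the miR-9 experiment, while Gas6 stayed between 2596 and 2724 scaled reads. The 7 astrocyte markers all had a log2 fold change below 0 after GFP-miR-34sp, with a median of −0.05. Their sums overlapped, with 3436 to 3638 CPM in GFP Ctrl and 3323 to 3480 in the sponge mice. Gfap, the intermediate filament of astrocytes, had the lowest of the 7 values, −0.19 (edgeR adjusted p = 0.464). The others lay between −0.12 (Aqp4) and −0.01 (Slc1a3). Gfap did not follow Gas6 among the controls, with 385.4, 362.2 and 381.1 CPM in the GFP Ctrl mice 4, 8 and 10. The part of these markers in the Gas6 difference was not tested.

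Pros1, the other TAM ligand, had 360.3, 327.4 and 285.8 scaled reads in GFP Ctrl and 308.8, 254.9 and 282.4 in GFP-miR-34sp. The groups overlapped, and the log2 fold change was −0.20 (SE 0.1, interval −0.42 to 0.02, edgeR adjusted p = 0.807). It was −0.12 without control mouse 4, −0.13 without mouse 13 and −0.29 without control mouse 10. Its means were 474 ± 29.4 and 469.2 ± 51.2 in the miR-9 experiment (log2 fold change −0.01, interval −0.21 to 0.18).

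Mfge8 (chr7:86278655-86293946, −), which links phosphatidylserine to αv integrins, was counted with few reads. It had 17.71, 18.95 and 20.52 scaled reads in the GFP Ctrl mice 2, 8 and 16, and 14.8, 13.31 and 14.36 in the GFP-miR-9sp mice 9, 17 and 23. All sponge mice were below all GFP Ctrl mice, which was so for 1 of the 10 uptake genes and for 5.02% of all genes, whereas no uptake gene and 5.21% of all genes were higher in all sponge mice. The means of 19.06 ± 1.41 and 14.15 ± 0.765 gave a log2 fold change of −0.43 (SE 0.23, interval −0.95 to 0.09, edgeR adjusted p = 0.97). An exact permutation test of 3 against 3 mice cannot go below p = 0.1. The criterion of the study is an unadjusted p under 0.05 in its unpaired test and a ratio above 1.2 or below its inverse. Rerun here, it was passed by 1 of 10 uptake genes, Mfge8, with a ratio of 0.743, and by 1.44% of 13083 genes. The rerun called more genes than the study reported for miR-9, so it does not repeat the study's own list. The other experiment gave 10.67, 2.22 and 4.796 scaled reads in GFP Ctrl and 4.84, 9.296 and 7.877 in GFP-miR-34sp, which overlapped. These means lay under the read limit, and the difference was not tested.

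Among the receptors, Tyro3 (chr2:119623469-119643840, +) had few reads in the miR-34 experiment, 27 to 59 counted reads per mouse over its 2 entries. It had 32, 37.73 and 42.2 scaled reads in the GFP Ctrl mice 4, 8 and 10, and 44.53, 45.71 and 55.14 in the GFP-miR-34sp mice 3, 13 and 18. It was the only 1 of the 9 genes tested with all sponge mice higher, which was so for 5.8% of all genes, whereas Gas6 and Elmo1 were lower in all sponge mice, as were 5.76% of all genes. The log2 fold change of Tyro3 was 0.36 (SE 0.19, interval −0.05 to 0.76, edgeR adjusted p = 0.82). Tyro3 holds the miR-34 heptamer shown above, as did 17.4% of the tested genes with a 3′ UTR, and a link to its value was not tested. Its main entry NM_019392 had 32.46 ± 3.48 and 42.57 ± 7.2 scaled reads. After GFP-miR-9sp, Tyro3 had means of 64.32 ± 10.7 and 66.68 ± 2.08 (log2 fold change 0.05, interval −0.31 to 0.41). The effects of the sponges on Tyro3 differed by 0.30 (interval −0.21 to 0.81, edgeR adjusted p = 0.87).

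The intervals of Mertk, Itgav and Megf10 included 0 in both experiments. For Mertk, the log2 fold change was 0.02 (interval −0.13 to 0.17) after GFP-miR-9sp and 0.01 (−0.15 to 0.16) after GFP-miR-34sp, with all values between 599.2 and 693.6 scaled reads in the latter experiment. For Itgav, it was 0.02 (−0.07 to 0.11) and −0.01 (−0.12 to 0.09). Itgav had the smallest spread of the 10 genes between the GFP Ctrl mice of the miR-9 experiment, an SD of 1.66% of the mean. For Megf10, it was −0.01 (−0.14 to 0.11) and 0.09 (−0.08 to 0.26). Expressed as ratios, the intervals after GFP-miR-34sp run from 0.901 to 1.12 for Mertk, 0.922 to 1.07 for Itgav and 0.948 to 1.2 for Megf10. A larger change of these receptors lies outside the intervals.

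Among the adaptors, Elmo1 (chr13:20182488-20698397, +) had a lower mean after both sponges. There were 389.5, 427.5 and 429.3 scaled reads in the GFP Ctrl mice 2, 8 and 16, and 395.3, 347 and 354.2 in the GFP-miR-9sp mice 9, 17 and 23. The groups overlapped, since mouse 9 was above the lowest control. The log2 fold change was −0.18 (SE 0.077, interval −0.36 to −0.01, edgeR adjusted p = 0.97). Elmo1 had 192, 249.7 and 183.2 scaled reads in the GFP Ctrl mice 4, 8 and 10, and 158.8, 180.5 and 166.5 in the GFP-miR-34sp mice 3, 13 and 18. The groups did not overlap, but mouse 8 was far above the other controls. The log2 fold change was −0.30 (SE 0.12, interval −0.57 to −0.02, edgeR adjusted p = 0.724), and without mouse 8 it was −0.15 (adjusted p = 0.915). This mouse 8 also had the most Ttr of its group. In the miR-9 experiment, the mice with the most Ttr of their groups, 2 and 17, had the lowest Elmo1 of their groups. A link of Elmo1 to Ttr was not tested. The effects of the sponges on Elmo1 differed by −0.11 (interval −0.43 to 0.21). Elmo1 holds the miR-9 heptamer shown above, as did 13.9% of the tested genes with a 3′ UTR, and a link to its value was not tested. Both entries had lower means in the sponge mice, with 337 ± 22 and 297.8 ± 17 scaled reads for NM_080288 and 78.45 ± 8.89 and 67.62 ± 9.17 for NM_198093 in the miR-9 experiment.

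Microglia markers, whose cells also express Elmo1, had a log2 fold change below 0 after GFP-miR-9sp in 8 of 10 cases, with a median of −0.07. Their sum was 687.3 to 702.7 CPM in GFP Ctrl and 640.8 to 673.4 in the sponge mice. CPM are scaled to total counts and not by TMM. With total counts only, the median log2 fold change of all genes in the miR-9 experiment was −0.022, beside −0.001 with TMM. The sums of the miR-34 experiment overlapped, with 608.8 to 655.7 and 619.3 to 647.1. In the miR-9 experiment, the 10 values ran from −0.10 (Olfml3) to 0.06 (Tmem119), and Fcrls was also above 0, at 0.04. Csf1r, the marker with the smallest p of these, was at −0.09 (edgeR adjusted p = 0.97), and at 0.00 in the miR-34 experiment. Microglia were not the only cells whose markers lay off 0 after GFP-miR-9sp. Oligodendrocyte markers were below 0 in 4 of 5 cases (median −0.11) and neuron markers in 0 of 6 (median 0.07). The part of microglia or other cells in the Elmo1 values of the miR-9 experiment was not tested.

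Dock1, which forms the Rac activator with Elmo1, had a log2 fold change of −0.04 in both experiments, with intervals of −0.16 to 0.07 and −0.19 to 0.12. Gulp1 had 79.41, 104.3 and 77.69 scaled reads in GFP Ctrl and 66.79, 81.34 and 56.26 in GFP-miR-34sp, with overlapping groups and a log2 fold change of −0.33 (interval −0.72 to 0.05, edgeR adjusted p = 0.828). With 1 mouse left out it ran from −0.49 (without mouse 13) to −0.18 (without control mouse 8), and it was −0.22 without mouse 18. Gulp1 had 130, 182.2 and 120.8 scaled reads in GFP-miR-9sp mice 9, 17 and 23 against 129.7 to 134.2 in GFP Ctrl, and mouse 17, the highest, also had the most Ttr. The log2 fold change was 0.13 (interval −0.21 to 0.47) and −0.07 without mouse 17. A link of Gulp1 to Ttr was not tested.

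**Figure D4:**
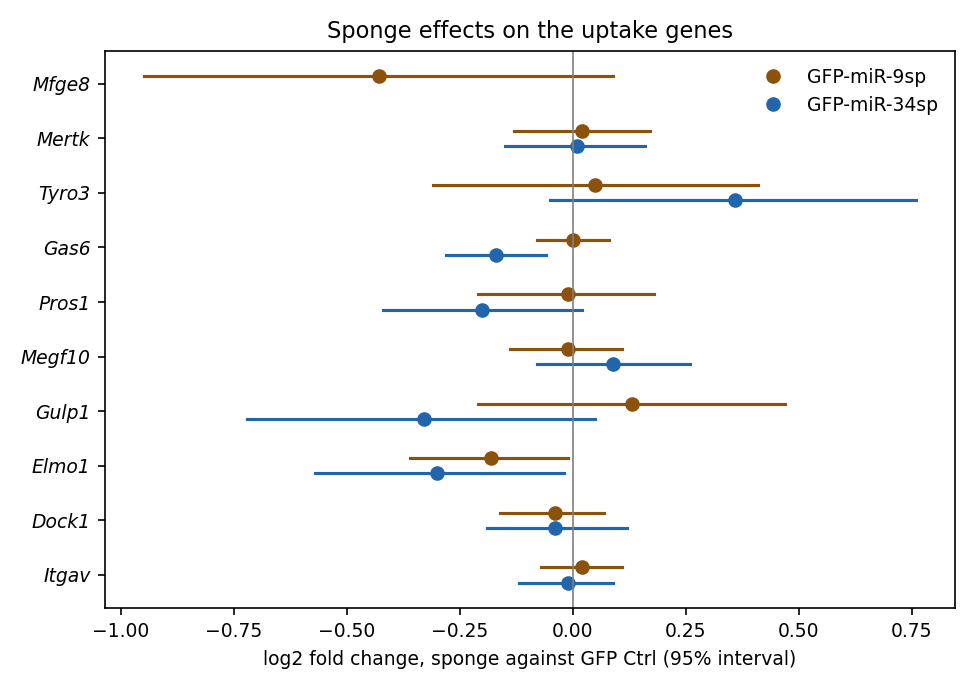
Log2 fold change of each uptake gene, sponge against GFP Ctrl (points), with its 95% interval from edgeR (lines), after GFP-miR-9sp (brown) and GFP-miR-34sp (blue). Intervals of Gas6 and Elmo1 after GFP-miR-34sp and of Elmo1 after GFP-miR-9sp do not include 0, and Mfge8 was not tested in the miR-34 experiment.

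The wider uptake pathway was described with a list of 108 other genes in 6 groups, of which 80 were tested in each experiment. No gene of the list passed the adjusted test in either. After GFP-miR-9sp, 1 of 80 was higher and 4 of 80 were lower by the unadjusted p, beside 2.47% and 2.26% of all genes. The median log2 fold change was −0.00, as for all genes, and 43 of 80 were below 0, beside 50.3% of all genes. The higher one was Vav2, an exchange factor of Rac, at 0.21 (edgeR adjusted p = 0.97). The lower ones were C3ar1, the receptor for complement fragment C3a, at −0.44 (edgeR adjusted p = 0.97), the complement component C4b at −0.25 (adjusted p = 0.97), Xkr4, a phosphatidylserine scramblase, at −0.17, and Cd200, an inhibitory signal to microglia, at −0.13. C3ar1 had 84.7 ± 6.27 scaled reads in GFP Ctrl and 62.63 ± 5.26 in the sponge mice. C4b had 1819 ± 162 and 1525 ± 116. By group, the values below 0 and the median log2 fold change were 8 of 10 and −0.07 for bridging molecules and complement, 4 of 12 and 0.03 for phosphatidylserine exposure and find-me signals, and 8 of 17 and 0.00 for receptors. They were 14 of 22 and −0.01 for adaptors, 6 of 14 and 0.01 for digestion, and 3 of 5 and −0.09 for don't-eat-me signals, so the groups lay on both sides of the 50.3% of all genes.

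After GFP-miR-34sp, 2 of 80 genes of the wider list were higher and 5 of 80 lower by the unadjusted p, beside 2.71% and 3.72% of all genes. The median was −0.04, beside −0.00 for all genes, and 50 of 80 were below 0, beside 50.3%. The higher ones were Atp11b, which belongs to the phospholipid flippases, at 0.23 (edgeR adjusted p = 0.49) and the focal adhesion kinase Ptk2 at 0.12. The lower ones were Clu, the extracellular chaperone clusterin, at −0.11 (adjusted p = 0.49), the lysosomal protease Ctsd at −0.12, the phosphatidylserine-binding Anxa5 at −0.17, Vav2 at −0.24 and the phagosome-associated myosin Myo10 at −0.11. Clu is also made by astrocytes, and had 15691 ± 138 scaled reads in GFP Ctrl and 14522 ± 229 in the sponge mice. Vav2 was thus past the unadjusted limit after both sponges, in opposite directions, with edgeR adjusted p of 0.97 and 0.714. Its sponge effects differed by −0.45 (interval −0.73 to −0.18, edgeR adjusted p = 0.704). This difference was computed only for genes of the list past that limit in both experiments. Vav2 was thus picked by the same values, and the interval is no separate test. Among the 17 receptors tested, of 27 on the list, 0 were past the unadjusted limit after GFP-miR-34sp. Values below 0 and the median were 10 of 17 and −0.01 for receptors and 14 of 22 and −0.05 for adaptors. They were 8 of 12 and −0.07 for phosphatidylserine exposure and find-me signals, and 6 of 10 and −0.04 for bridging molecules and complement. For digestion they were 10 of 14 and −0.02, and for don't-eat-me signals 2 of 5 and 0.01.

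The gene with the most similar pattern to each member was named by Pearson's r of log2 CPM over the 12 mice, after subtraction of the mean of each experiment, among about 9235 genes. The r is the highest of many and carries no test. Pros1 was most like Ginm1 (r = 0.981), Gas6 most like Antxr1 (0.953), Mfge8 most like Fam8a1 (0.943), Dock1 most like Atp1b3 (0.941) and Gulp1 most like S100a6 (0.939). Itgav was most like Arhgap18 (0.933), Tyro3 most like Adam22 (0.925), Elmo1 most like Btd (0.924), Megf10 most like Igfbp5 (0.922) and Mertk most like Car10 (0.904). The mice of an experiment share their preparation, and the r describes these 12 mice only.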

How the data were processed

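Poly-A RNA of whole hippocampi was prepared with the NuGEN Ovation system and sequenced as 50 bp single end reads. The authors deposited raw read counts per RefSeq entry, with the length of each entry in bases as another kind of value beside them. The methods name mm9, whereas the submitters' processing notes name STAR and mm10. The rule for reads that fit several entries is not given in the sources used here. The column labels name totRNA in the miR-9 experiment only, and the effect of this was not tested.

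Entries were joined to symbols (98.7% of 32850) and summed by gene. A count of 0 allows up to 3 reads, or 1.23e-05 to 1.74e-05% of the reads of a mouse (miR-9 experiment) and 1.77e-05 to 2.72e-05% (miR-34 experiment). PCR copies cannot be told apart, so this covers counting error only. Each experiment was fitted alone with edgeR 4.0.16 (R 4.3.3), TMM scaling and the quasi-likelihood test. Genes or entries with a mean above 10 reads over 6 mice, after scaling to the average total count, were fitted. Sponge effects were compared in 1 model of all 12 mice. Adjusted p-values (Benjamini-Hochberg) cover all genes or entries tested, and SEs were taken from the F statistic. No pairing was used, since sponge and GFP Ctrl mice share no number. No pair of libraries was identical. The labels do not say that the mice of a group came from separate litters, and p-values measure the spread between these mice. DESeq2 1.42.0, other size factors, read limits of 1 and 100, the criterion of the study and leaving out each mouse were alternatives. Leaving out the mice 2 and 17, with the most Ttr, was chosen after seeing the data. The code was tested on simulated counts. Tables and figures were made with Python 3.11.15, pandas 2.3.3, scipy 1.17.1 and matplotlib 3.10.9.

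The members, the wider list and the marker lists were chosen with earlier results of these data known. The text names all members, every gene of the wider list with an unadjusted p under 0.05, and some markers given beside member results. For each member it also names the gene with the highest r among genes with at least 100 reads on average.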

Additional observations from a re-analysis of the deposited data

Results flagged for a closer look

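The sponge effects on Gas6 differed between the experiments by −0.17 on the log2 scale (effect of GFP-miR-34sp minus that of GFP-miR-9sp, interval −0.31 to −0.04, edgeR adjusted p = 0.761). The unadjusted p was below 0.05 in 13 of 14 alternatives, and without GFP Ctrl mouse 8 of the miR-34 experiment the difference was −0.12 (adjusted p = 0.844). For Vav2, the exchange factor of the wider list, the difference was −0.45 (interval −0.73 to −0.18, edgeR adjusted p = 0.704). Vav2 was picked for this by its unadjusted p in both experiments. Neither passed the adjusted test.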

How the results depend on the processing

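No uptake gene and no entry of these genes passed the adjusted edgeR or DESeq2 test under any alternative run. The criterion of the study, as rerun here, gave 1 gene (Mfge8) in the miR-9 experiment. No paired analysis was possible because the sponge and GFP Ctrl mice of an experiment share no number. The counts by the unadjusted p were less stable. In the miR-9 experiment, the 1 uptake gene (Elmo1) became 0 under DESeq2, in 1 model of all 12 mice and without the 2 mice with the most Ttr, and 0 to 1 when each mouse was left out (0 without mouse 8, 16, 17 or 23). In the miR-34 experiment, the 2 genes became 1 under DESeq2 and 1 to 3 with a mouse left out, and the wider list went from 7 to 4 under DESeq2 and to 6 to 11 (11 without control mouse 10). In the miR-9 experiment the wider list went from 5 to 3 to 12 (9 without mouse 2, 3 without mouse 8, 12 without mouse 9). The single difference between the sponge effects became 1 to 2. The cause of these shifts was not tested, and leaving out a mouse lowers the number of samples. Gas6 after GFP-miR-34sp kept its direction and an unadjusted p below 0.05 in 12 of 12 alternatives (−0.22 to −0.12, adjusted p 0.101 to 0.888). Elmo1 kept its direction throughout, with an unadjusted p below 0.05 in 8 of 12 alternatives in the miR-34 experiment (−0.39 to −0.15) and in 6 of 13 in the miR-9 experiment (−0.25 to −0.14). Without control mouse 8, Megf10 after GFP-miR-34sp was at 0.19 (edgeR adjusted p = 0.79), below an unadjusted p of 0.05 in 1 of 12 alternatives. Pros1 and Gulp1 after GFP-miR-34sp were below it in 3 of 12 (−0.29 to −0.12) and 1 of 11 (−0.49 to −0.18, without mouse 13), and their direction did not change in these.

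Values near 0 changed sign. With a mouse left out of the miR-9 experiment, the log2 fold change ran from −0.08 to 0.14 for Tyro3, −0.13 to 0.09 for its entry NM_019392, −0.07 to 0.07 for Pros1, −0.04 to 0.08 for Mertk, −0.05 to 0.04 for Megf10, −0.07 to 0.24 for Gulp1 and −0.01 to 0.05 for Itgav. Without the 2 mice with the most Ttr, Mertk was at −0.07, Tyro3 at −0.10, Gulp1 at −0.07 and Itgav at −0.01. In the miR-34 experiment, Mertk ran from −0.04 to 0.07, Dock1 from −0.11 to 0.05 and Itgav from −0.04 to 0.03. The difference between the sponge effects ran from −0.08 to 0.05 for Mertk (0.01 with total counts only), −0.07 to 0.09 for Dock1, −0.21 to 0.03 for Elmo1 and −0.07 to 0.01 for Itgav.

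Scaling to total counts only in the miR-9 experiment shifted the genes with an unadjusted p under 0.05 from 322 higher and 295 lower to 190 and 484. In the miR-34 experiment, the 8 genes of all that passed the adjusted test became 4 with total counts only and 4 with RLE size factors. A read limit of 100 left no value for Mfge8 and Tyro3, nor for Gulp1 in the miR-34 experiment. For Mfge8 the few reads limit any statement.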
